A study of Mus musculus with 4 samples.

Results

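Trmt112 and 5 genes whose protein products bind it were examined in ChIP-seq peak lists of mouse colorectal tumour organoids: N6amt1, Trmt11, Alkbh8, Bud23 and Mettl5. These 6 genes, of 21853 protein-coding genes with an annotated coding start, were chosen by name, as the small activator protein TRMT112 and methyltransferases known to need it. The organoids came from a tumour of the AOM/DSS model (azoxymethane and dextran sulfate sodium), were labelled clone 3 and were at passage 14, and their genotype field reads NA. There was 1 library each for KMT9alpha, KMT9beta and H4K12me1 (histone H4 monomethylated at lysine 12), all from these organoids, so no value has a replicate check and no test between libraries was made. An input library of the same organoids was not analysed here. The medium of all of them was DMEM/F12 with murine EGF at 50 ng/ml, HEPES at 10 mmol/L, N-Acc at 1 mmol/L, Glutamax, N2 and B27. Tamoxifen at 1 µM and vehicle are both given in the treatment field, with neither assigned to a library, and a single clone limits the organoids as a model of such tumours.

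TRMT112 has no known catalytic activity of its own. It binds several S-adenosylmethionine-dependent methyltransferases, and most of these are unstable or inactive without it. The partners act on different substrates of the translation machinery: TRMT11 methylates a guanosine of tRNA, the methyltransferase domain of ALKBH8 completes a modified uridine at the wobble position of tRNA, BUD23 and METTL5 modify bases of the RNA of the small ribosomal subunit, and N6AMT1 (also HEMK2) methylates the translation release factor eRF1. N6AMT1 and TRMT112 are also the KMT9alpha and KMT9beta subunits of the histone methyltransferase KMT9, which writes H4K12me1. The peak lists therefore show where the products of Trmt112 and N6amt1, and their mark, were found on their own genes and on the genes of the other partners.

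The promoters of the members are shown because each of them lay, in whole or in part, under a KMT9alpha peak. The main start of a gene is here its most upstream start with a consensus coding sequence. Each run was read from the mm10 reference (GRCm38.p6) on the strand of the gene, 5′ to 3′. It covers up to 250 bases before the main start, shortened where another transcript has untranslated sequence, and runs 30 bases into the transcript for N6amt1 and Mettl5, where these hold a motif match. For Trmt112 the run stops 81 bases short of the main start, and lies largely in the coding exon of its neighbour Prdx5. For Bud23 it is not upstream but in the first intron of the main transcript, the 26 bases between its second exon and the start of the neighbour Dnajc30, 465 bases from the main start. The Alkbh8 run lies before the main start but within the annotated gene, downstream of the coding start of another transcript at 3335140. The positions are chr19:6909448-6909617 for Trmt112, chr16:87353935-87354214 for N6amt1, chr10:30600750-30600999 for Trmt11, chr9:3335251-3335477 for Alkbh8, chr5:135064176-135064201 for Bud23 and chr2:69885586-69885865 for Mettl5, with Trmt112, N6amt1 and Alkbh8 on the + strand and the others on the - strand. Capitals mark matches to the motifs described below.
Trmt112: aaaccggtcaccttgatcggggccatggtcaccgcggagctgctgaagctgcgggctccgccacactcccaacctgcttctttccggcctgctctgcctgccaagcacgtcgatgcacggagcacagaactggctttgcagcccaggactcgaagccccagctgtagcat
N6amt1: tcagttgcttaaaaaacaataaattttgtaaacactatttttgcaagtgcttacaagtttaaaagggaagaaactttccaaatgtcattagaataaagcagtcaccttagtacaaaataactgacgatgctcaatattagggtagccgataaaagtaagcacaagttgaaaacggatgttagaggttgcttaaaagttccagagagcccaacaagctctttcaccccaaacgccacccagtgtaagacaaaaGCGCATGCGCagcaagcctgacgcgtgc
Trmt11: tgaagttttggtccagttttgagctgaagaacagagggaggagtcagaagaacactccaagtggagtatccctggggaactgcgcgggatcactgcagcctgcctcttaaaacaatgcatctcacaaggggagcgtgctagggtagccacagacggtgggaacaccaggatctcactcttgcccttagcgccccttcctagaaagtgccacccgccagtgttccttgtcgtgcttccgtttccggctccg
Alkbh8: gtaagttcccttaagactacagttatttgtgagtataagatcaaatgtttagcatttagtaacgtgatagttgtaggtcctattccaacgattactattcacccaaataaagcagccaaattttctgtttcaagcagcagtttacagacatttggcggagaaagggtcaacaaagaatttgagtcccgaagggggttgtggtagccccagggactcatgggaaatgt
Bud23: tcctgagcggcgtccccaccttctag
Mettl5: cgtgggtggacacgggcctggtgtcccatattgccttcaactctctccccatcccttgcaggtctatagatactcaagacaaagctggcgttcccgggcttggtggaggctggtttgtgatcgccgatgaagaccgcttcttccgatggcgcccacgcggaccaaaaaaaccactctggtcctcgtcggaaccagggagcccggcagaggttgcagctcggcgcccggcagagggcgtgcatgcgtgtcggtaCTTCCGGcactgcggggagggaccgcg

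The runs of Trmt112 and Bud23 lay inside peaks of all 3 libraries, those of Trmt11 and Mettl5 inside peaks of KMT9alpha and KMT9beta, and that of Alkbh8 inside a KMT9alpha peak only. The run of N6amt1 was the poorest in GC among the 6 (39.6%). The KMT9alpha peak held all of it but the first base, and the KMT9beta peak only the part next to the start. The capitals in N6amt1, bases 3 to 12 of the transcript, hold the letters GCATGCGC of the NRF1 motif on each strand, in overlapping matches. The capitals in Mettl5, bases 4 to 10, are CCGGAAG of the ETS motif on the other strand. The same motifs were counted on both strands in the RefSeq promoters of GRCm38.p6, 250 bases before to 50 after a start, where all 6 members matched by symbol and no motif contains another. GCATGCGC was in 2.71% and CCGGAAG in 8.86% of 32851 such promoters, and among the members each was in 1, the genes just named. The GC box GGGCGG, in 35.7% of promoters, was in those of Trmt112, N6amt1 and Trmt11. CCAAT, the NF-Y motif, in 37.4%, was in those of Alkbh8 and Bud23, whose RefSeq starts lie upstream of the main starts used here. The E-box CACGTG (7.15%), TGACGTCA of cAMP response (1.79%), AAGATGGCG of YY1 (1.40%) and the TATA box TATAAA (13.6%) were in none of the 6 windows. A match is a description of letters and not a shown site.

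All 6 genes carried KMT9alpha at the promoter, 5 carried KMT9beta, and 2, Trmt112 and Bud23, carried H4K12me1. A promoter is here 1 kb either side of the start of any protein-coding transcript, and a peak counts when it shares 1 bp or more with it. KMT9alpha was at 6 of 6 promoters (exact Clopper-Pearson 95% interval 54.1 to 100%), against 54.2% of all protein-coding genes. KMT9beta was at 5 of 6 (83.3%, 35.9 to 99.6%), against 65.1% of genes. H4K12me1 was at 2 of 6 (33.3%, 4.33 to 77.7%), against 44.9%, and all 3 were at the same 2 genes, against 35.5%. The intervals cover counting over genes only, and with 6 genes each of them includes the share over all genes. Mettl5, N6amt1 and Trmt11 belonged to the 3390 genes (15.5%) with both subunits and no H4K12me1, and Alkbh8 to the 566 genes (2.59%) with KMT9alpha alone.

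**Figure D1:**
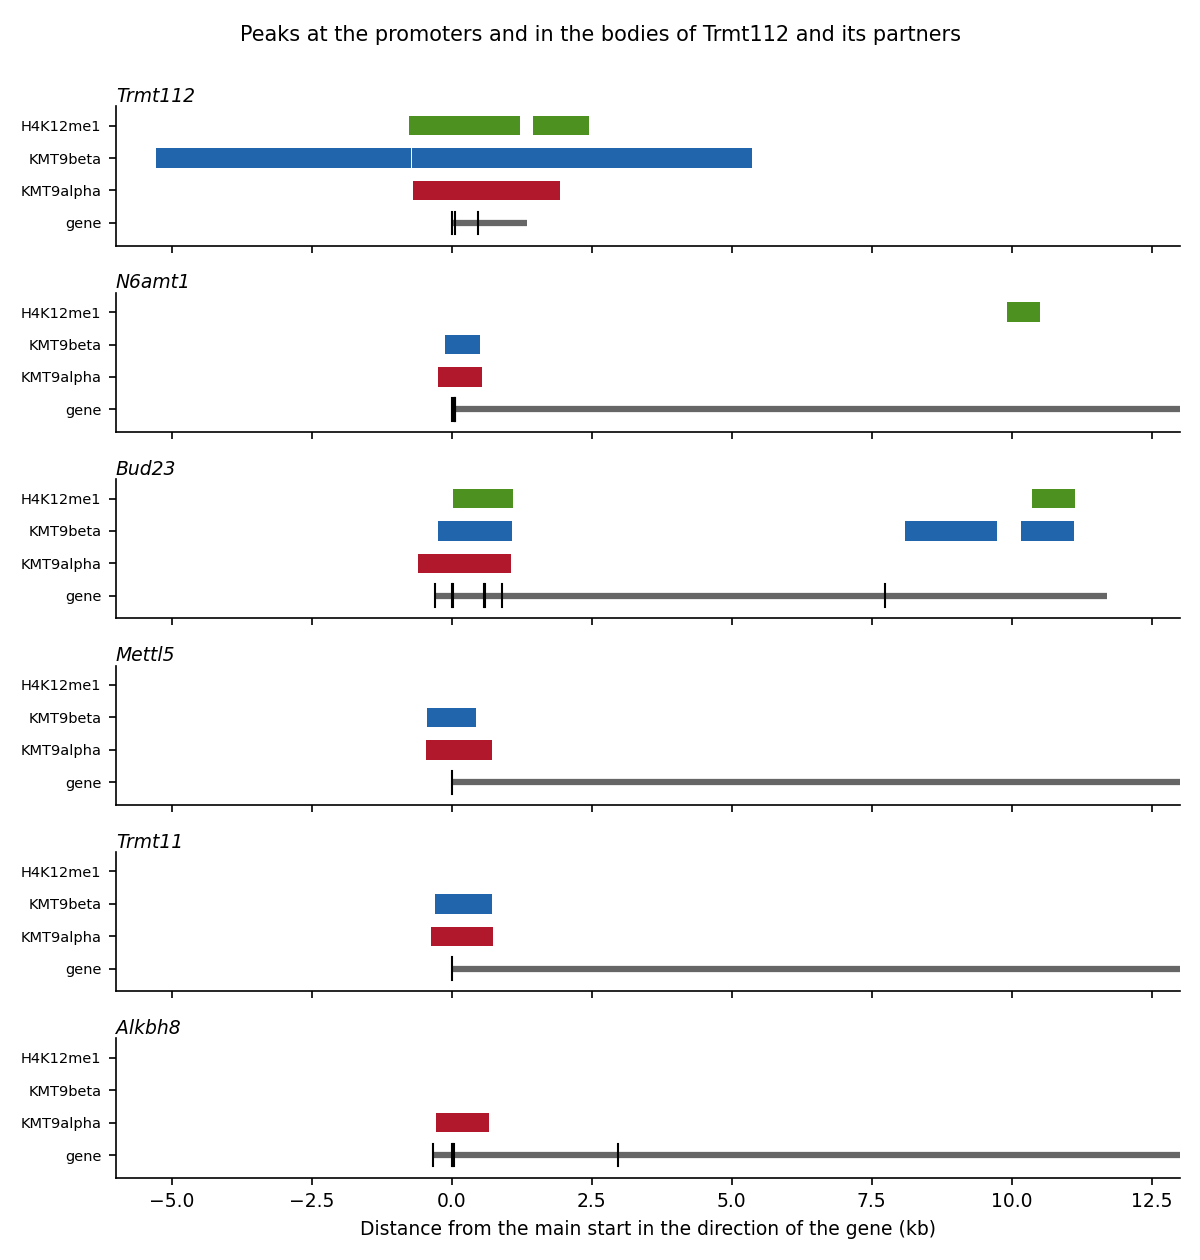
Each panel shows 1 gene, with distance from the main start in kb on the x axis (positive in the direction of the gene), peaks of the 3 libraries as bars, the gene as a grey line that can run past the edge, and coding starts as black ticks. KMT9alpha lies over the start of all 6 genes, H4K12me1 over or just inside that of Trmt112 and Bud23 only, and no KMT9beta or H4K12me1 bar is present at Alkbh8.

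Trmt112, the gene of the activator and of KMT9beta, had the broadest peaks of the 6. It lies on chromosome 19 (6909698 to 6911049, + strand, 1352 bp), has 3 coding starts and starts 81 bp from a start of Prdx5, a peroxiredoxin gene on the other strand. The KMT9alpha peak (6909003 to 6911624, 2622 bp, score 3100) contained the whole gene. The score is the authors' value per peak, with no unit given, and is compared only within a list, and library depth is unknown. The strongest KMT9beta peak (6908988 to 6915062, 6075 bp, score 750.74) contained the gene as well and ran on into Esrra, an orphan nuclear receptor gene. That score was at percentile 97.9 of the genes with a KMT9beta promoter peak, and the width at percentile 99.7 of the list. Another KMT9beta peak (6904420 to 6908978, score 324.54) reached the promoter window from the body of Prdx5. The H4K12me1 peak over the start (6908938 to 6910924, 1987 bp) scored 185.17, percentile 79.0 of the genes with such a peak, and another (6911141 to 6912154, score 118.58) touched the window of the most downstream start. The 3 peaks over the start shared 1922 bp. They are also the promoter peaks of Prdx5, so they cannot be assigned to either gene.

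N6amt1, the gene of KMT9alpha, carried both subunits of the enzyme in short peaks. It lies on chromosome 16 (87354185 to 87368742, + strand) and its 4 coding starts fall within both peaks. The KMT9alpha peak (87353936 to 87354721, 786 bp) scored 1968.94, percentile 41.3 of the genes with a promoter peak. The KMT9beta peak (87354064 to 87354687, 624 bp) lay wholly within it and scored 83.17, at percentile 11.2 among genes and percentile 5.55 of the list for width. The midpoints of both fell in coding sequence shared by the 4 coding transcripts. The nearest H4K12me1 peak (87364095 to 87364698, score 62.76, percentile 7.80 of the list) began 9.91 kb downstream of the start, inside the gene. Its midpoint lay in untranslated sequence of a single transcript and in no coding exon.

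Bud23, whose product methylates a guanosine of the small subunit's ribosomal RNA, was the other gene with all 3. It lies on chromosome 5 (135052957 to 135064959, - strand) and has 7 coding starts, and its promoter overlaps that of Dnajc30, which encodes a mitochondrial J-domain protein and starts 464 bp from the main start on the other strand. The KMT9alpha peak (135063602 to 135065271, 1670 bp, score 2568.56) covered 6 of these starts. The KMT9beta peak (135063597 to 135064905, 1309 bp) scored 235.37, percentile 57.4 among genes. The H4K12me1 peak (135063580 to 135064647, 1068 bp) scored 197.59, percentile 81.9 among genes, and ended 19 bp downstream of the main start, so it did not cover it. The 3 peaks had nearly the same downstream edge and shared 1046 bp, which is 97.9% of the H4K12me1 peak. The same peaks are those of Dnajc30, which has the same 3 scores. Another KMT9beta peak (135054931 to 135056577, score 158.5) met the promoter window only through a transcript whose 5′ end is annotated as incomplete.

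Mettl5 encodes the enzyme that places N6-methyladenosine on the RNA of the small ribosomal subunit. It lies on chromosome 2 (69871198 to 69885615, - strand) with 1 coding start. Its KMT9alpha peak (69884899 to 69886074, 1176 bp) scored 2266.15, percentile 45.3 among genes, and its KMT9beta peak (69885182 to 69886060, 879 bp) scored 86.81, percentile 12.3. The nearest H4K12me1 peak lay 11.3 kb upstream, at the promoter of Ubr3, with a score of 211.41.

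Trmt11, the gene of a tRNA guanosine methyltransferase, reached the ceiling of the KMT9alpha scale without H4K12me1. It lies on chromosome 10 (30534225 to 30600749, - strand) with 1 coding start. The KMT9alpha peak (30600018 to 30601127, 1110 bp) scored 3100, percentile 76.5 among genes with ties counted midway. The KMT9beta peak (30600025 to 30601051, 1027 bp) scored 110.39, percentile 20.5 among genes. The KMT9beta peak lay wholly within the KMT9alpha peak. The nearest H4K12me1 peak was 17.2 kb upstream, in Hint3, with a score of 92.82.

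Alkbh8 encodes a protein with both an AlkB oxygenase domain and a methyltransferase domain, and it was the member with KMT9alpha alone. It lies on chromosome 9 (3335140 to 3391154, + strand) with 5 coding starts. Its KMT9alpha peak (3335199 to 3336148, 950 bp) covered 3 of them and scored 935.5, the lowest of the 6 and percentile 24.4 among genes. The nearest KMT9beta and H4K12me1 peaks lay 76.4 kb and 76.1 kb upstream, over each other and in no annotated gene, with scores of 301.3 and 108.91. Within 100 kb of the main start the lists held 2 KMT9alpha peaks, 1 KMT9beta peak and 1 H4K12me1 peak around 2 coding genes. Around Trmt112 the same distance held 36, 42 and 70 peaks and 16 coding genes, and around Bud23 14, 30 and 27 peaks and 8 coding genes. The other 3 members had 2 to 5 KMT9alpha peaks, 2 to 8 KMT9beta peaks and 2 to 4 H4K12me1 peaks around them.

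In order of KMT9alpha score the members were Trmt112 and Trmt11 (3100 each), Bud23 (2568.56), Mettl5 (2266.15), N6amt1 (1968.94) and Alkbh8 (935.5). The value 3100 is near a ceiling that 19.2% of the peaks in the list reached or passed, so Trmt112 and Trmt11 cannot be ordered, and without replicates the spread behind the other steps is unknown. At promoters the ceiling is common. A score of 3100 was at percentile 76.5 of the genes with a KMT9alpha promoter peak, ties counted midway, and it was the median at genes with all 3. The median of the 6 was 2417.36, against 2647.02 over all genes with a KMT9alpha promoter peak. For KMT9beta the order was Trmt112 (750.74), Bud23 (235.37), Trmt11 (110.39), Mettl5 (86.81) and N6amt1 (83.17), with a median of 110.39 against 206.49 over all genes with a peak. The members with H4K12me1 were the 2 with the highest KMT9beta scores. Over all genes the median KMT9beta score was 271.4 at the 7747 promoters with all 3 and 170.63 (quartiles 112.31 and 253.02) at those with both subunits and no H4K12me1. Trmt11, Mettl5 and N6amt1 lay below the lower of these quartiles, Bud23 lay below the median of its class and Trmt112 above it.

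**Figure D2:**
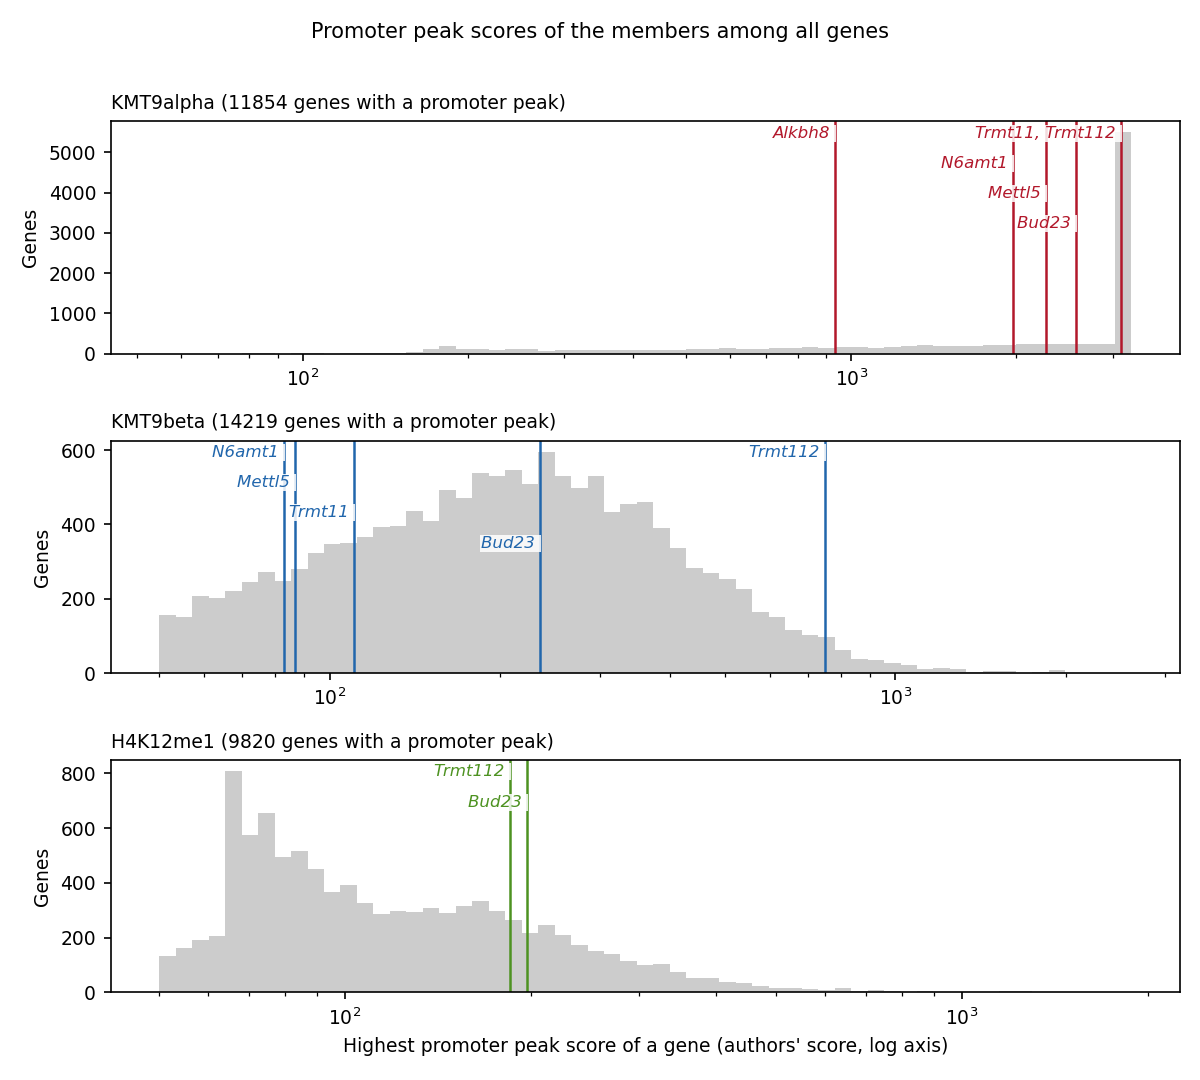
Histograms of the highest promoter score of each gene (x axis, authors' score, log axis; y axis, number of genes), 1 panel per library, with the members as vertical lines. Trmt112 stands far right for KMT9beta at 750.74, N6amt1 and Mettl5 stand on the left flank at 83.17 and 86.81, and the KMT9alpha values crowd at the ceiling of 3100.

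N6amt1, Trmt11 and Mettl5, the members with both subunits and no H4K12me1, had KMT9beta scores that were low for promoters, at percentiles 11.2, 20.5 and 12.3 among genes. In the whole KMT9beta list the same peaks were at percentiles 46.7, 64.3 and 49.8, so they were not among its weakest. The KMT9beta and H4K12me1 lists were shortened to their 26146 highest scores, the size of the KMT9alpha list, which stayed whole. KMT9beta peaks under 127.36 then dropped out, and KMT9beta was left at 2 of 6 promoters, Trmt112 and Bud23, against 48.0% of all genes. When each list was limited to its upper scores, from the median on, it was left at 3, Trmt112, Bud23 and Trmt11, against 57.0%. The H4K12me1 calls at Trmt112 and Bud23 stood under both settings. All 6 KMT9alpha calls stood at the median limit. The setting with 26146 peaks removes no KMT9alpha peak, so it cannot test these calls. When the midpoint of a peak, or at least 50% of its width, had to lie in the promoter window, the broad KMT9beta peak of Trmt112 no longer counted, which left 1 member with all 3, Bud23. Over all genes the share with all 3 was then 32.9% by the midpoint and 32.2% by the width.

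The KMT9beta peaks of N6amt1, Trmt11 and Mettl5 lay wholly inside the KMT9alpha peak and made up 79.4%, 92.5% and 74.7% of its width. At Bud23 99.6% of the KMT9beta peak was inside the KMT9alpha peak. At Trmt112 the relation was the other way round, since the KMT9alpha peak lay wholly inside a KMT9beta peak and took 43.2% of it. The midpoint of the KMT9alpha peak was downstream of the main start at all 6 genes, by 129 bp at Mettl5, 143 bp at N6amt1, 177 bp at Trmt11, 195 bp at Alkbh8, 230 bp at Bud23 and 615 bp at Trmt112.

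Trmt112 and Bud23 were the members whose promoter window overlaps that of another protein-coding gene. Over all genes H4K12me1 was at 62.6% of the 3169 promoters with such an overlap and at 41.9% of the 18684 without one, and KMT9alpha was at 85.6% and 48.9%. H4K12me1 was also frequent on their chromosomes, at 72.3% of the promoters on chromosome 19 and 56.8% on chromosome 5. On chromosomes 2, 9, 10 and 16, which hold the other members, it was at 43.3%, 45.8%, 47.8% and 41.6%. What part shared promoters or the chromosome have in the marks at Trmt112 and Bud23 was not tested.

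The promoter with KMT9alpha alone was the poorest in CpG among the 6. The ratio of observed to expected CpG, in 1001 bp around the main start, was 0.866 for N6amt1, 0.851 for Trmt112, 0.824 for Bud23, 0.741 for Mettl5, 0.638 for Trmt11 and 0.420 for Alkbh8. The first 3 fell in the highest of 5 equal classes of genes, Mettl5 in class 4, Trmt11 in class 3 and Alkbh8 in class 2. In the highest class 93.6% of genes had KMT9alpha, 96.4% KMT9beta and 71.7% H4K12me1, so N6amt1 was among the genes of that class with both subunits and no mark (23.8%). In class 2, 21.1% of genes had KMT9alpha and 42.0% KMT9beta, and KMT9alpha alone, as at Alkbh8, was found at 2.56%. Alkbh8 lies at the upper edge of that class, which ends at 0.422, and in class 3 the same shares were 62.4%, 76.6% and 5.06%.

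**Figure D3:**
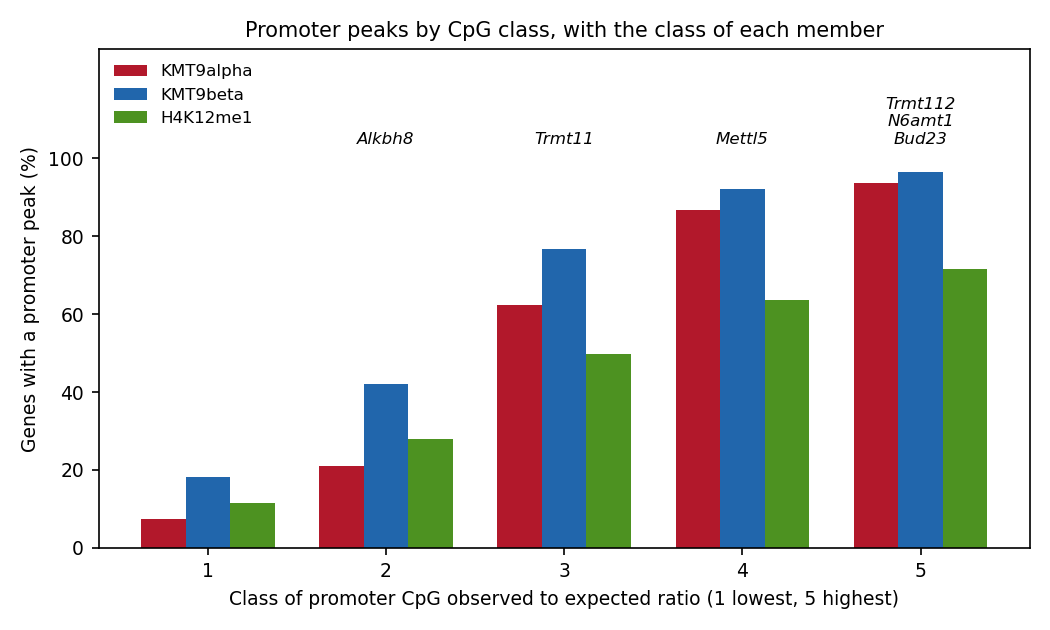
Share of genes with a promoter peak (y axis, percent) of each library in 5 equal classes of promoter CpG ratio (x axis), with the members written above their class. The bars rise from class 1 to class 5 for each library, Alkbh8 stands in class 2, where 21.1% of genes had KMT9alpha, and Trmt112, N6amt1 and Bud23 stand in class 5, where 93.6% had it.

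Away from their promoters the 6 genes held 3 peaks. Over their 164871 bp no KMT9alpha peak lay in a gene body without touching a promoter window, 1 KMT9beta peak did, in Bud23, and 2 H4K12me1 peaks did, in N6amt1 and Bud23. This is 0.0607 KMT9beta and 0.121 H4K12me1 peaks per 10 kb, against 0.428 and 0.279 over all protein-coding genes. A further KMT9beta peak within Bud23 (135054931 to 135056577, score 158.5) is not counted here. It touches a promoter window only through the start with an incomplete 5′ end, and without that start the KMT9beta rate of the members would be higher. For KMT9alpha the rate over all genes was 0.0784 per 10 kb, and 80.2% of genes had no such peak, so its absence from the members is near the background. In Bud23 the KMT9beta peak (135053556 to 135054504, score 72.88) and the H4K12me1 peak (135053534 to 135054312, score 134.91) overlapped near the end of the gene, in an intron, and each contained the small Cajal body RNA gene Gm25492. Trmt11 (66525 bp) and Alkbh8 (56015 bp), the longest of the 6, had no peak of any library in the body. Of the 1603 genes of 50 to 75 kb, 71.4% had no KMT9alpha peak in the body, 33.0% no KMT9beta peak and 43.7% no H4K12me1 peak.

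Other genes of RNA methylation and its surroundings were taken from 8 lists, 89 genes in all, and KMT9alpha was at nearly every one of their promoters too. KMT9alpha was at 87 of the 89 (97.8%), KMT9beta at 81 (91.0%) and H4K12me1, with both subunits, at 50 (56.2%), against 54.2%, 65.1% and 35.5% of all genes. The last count was 29 of 89 when each list was limited to scores from its median on, against 23.1% of all genes. With 26146 peaks per list it was 20 of 89, close to the 22.2% of all genes, so the excess was not seen at that setting. With all peaks, the genes of CpG classes 4 and 5 had KMT9alpha at 86.7% and 93.6%. KMT9beta was there at 92.1% and 96.4%, and all 3 at 56.8% and 67.8%. The CpG ratios of the listed genes were not compared, so what part CpG has in their shares was not tested. Thumpd3 and Thumpd2 encode the further methyltransferases known to act with TRMT112. Thumpd3 carried all 3: KMT9alpha scored 3022.44, KMT9beta 160.43 and H4K12me1 163.04. Thumpd2 carried KMT9alpha (2212.3) and KMT9beta (72.0) and no H4K12me1. Of the 8 genes in TRMT112's circle, the 6 members and these, 8 thus had KMT9alpha and 3 had all of the libraries.

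The tRNA methyltransferases that work without TRMT112 had KMT9alpha at 25 of 25 promoters, KMT9beta at 22 and all 3 at 13 (52.0%, 31.3 to 72.2%), among them Trmt13, a 2′-O-methyltransferase gene (3144.78, 205.98 and 84.72 for KMT9alpha, KMT9beta and H4K12me1). The rRNA methyltransferases had both subunits at 13 of 13 and all 3 at 7 (53.8%), among them Fbl, the methyltransferase of box C/D ribonucleoproteins (3100, 409.91 and 105.89). The genes that build the wobble uridine on which ALKBH8 acts, Elongator and the thiolation enzymes, had KMT9alpha at 12 of 12, KMT9beta at 11 and all 3 at 8 (66.7%), among them Ctu2 (3100, 600.02 and 66.9). The rest of the AlkB family had both subunits at 8 of 8 and all 3 at 5 (62.5%), among them Alkbh1 (3100, 308.03 and 74.46). Alkbh8 was thus the member of its family without KMT9beta in these lists. The writers of N6-methyladenosine on mRNA and snRNA had KMT9alpha at 10 of 10, KMT9beta at 9 and all 3 at 7 (70.0%), among them Zc3h13 (3203.79, 166.34 and 68.72).

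The genes of translation termination, which include Etf1 for eRF1, the substrate of N6AMT1, had KMT9alpha at 6 of 7, KMT9beta at 5 and all 3 at 3 (42.9%). Etf1 carried all 3 (3100, 294.29 and 124.11), and Gspt2, a retrogene copy of the partner factor eRF3, had no promoter peak. The assembly factors of the small ribosomal subunit had KMT9alpha and KMT9beta at 11 of 12 each and all 3 at 6 (50.0%), among them Ltv1 (3100, 247.74 and 117.26), and Utp14a had none. Gspt2 and Utp14a are both on chromosome X. The pattern of Alkbh8, KMT9alpha alone, was found at 6 of the 89 genes (6.74%, against 2.59% of all genes), and both subunits without the mark, as at N6amt1, Trmt11 and Mettl5, at 31 (34.8%, against 15.5%). In CpG classes 4 and 5 KMT9alpha alone was at 3.14% and 1.53% of genes, and both subunits without the mark at 26.1% and 23.8%. The interval of every list overlapped that of the members for each library, and no test between lists was made. With 6 members the intervals are wide, so this overlap does not show that the members resemble the lists.

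**Figure D4:**
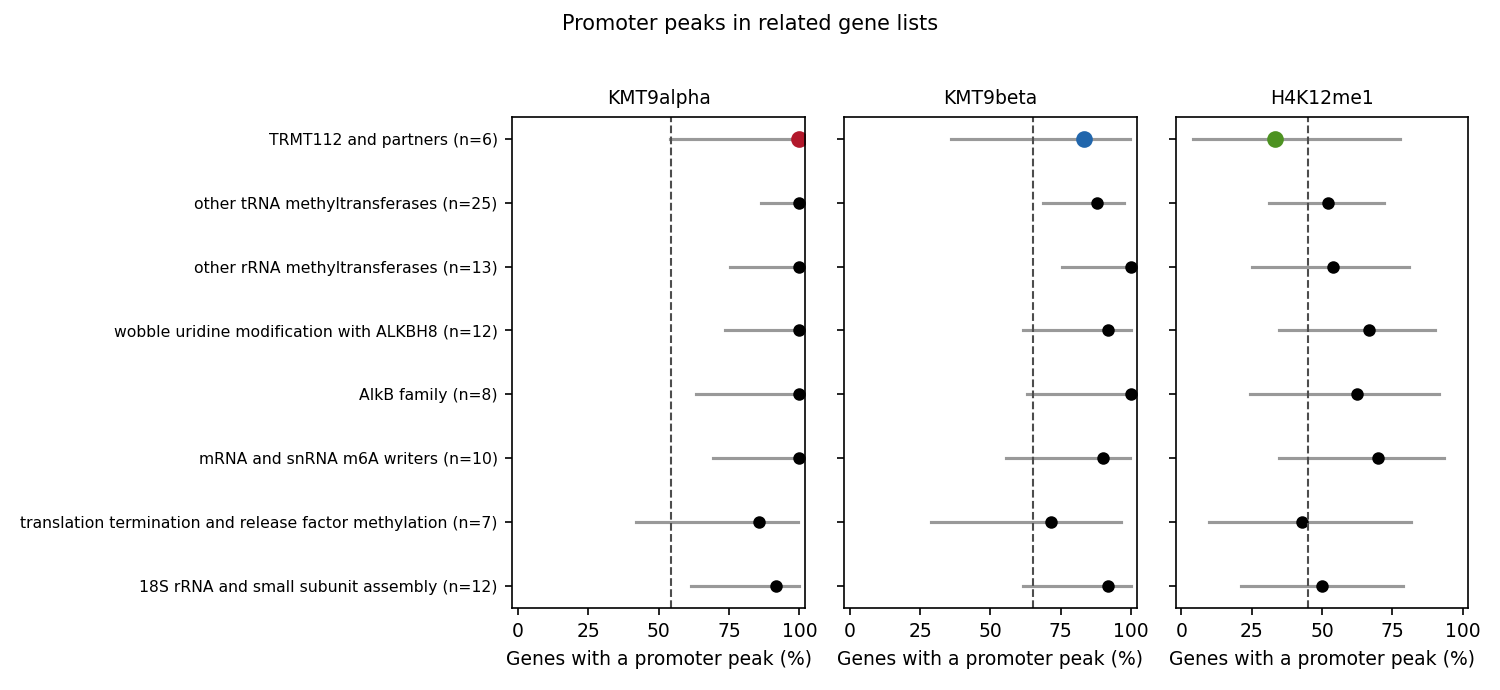
Share of genes with a promoter peak (x axis, percent) in the members (coloured) and 7 related lists (black), 1 panel per library, with exact 95% binomial intervals as lines and the share over all protein-coding genes dashed. KMT9alpha lies at 85.7 to 100% in every list, H4K12me1 at 33.3% in the members and at 42.9 to 70.0% in the other lists.

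Markers of cell types were looked at in the same way. All 3 were at 6 of 8 gut epithelial marker promoters, 1 of 5 of fibroblasts and endothelium and 0 of 5 of immune cells (upper limit 52.2%). The share over all genes was 35.5%, and the 95% interval of each marker list includes it. H4K12me1 alone was at 1 of the immune markers. Of the 5 fibroblast and endothelial markers, KMT9alpha was at 2, KMT9beta at 3 and H4K12me1 at 2. No promoter peak was listed at 4 of the 5 immune markers, Adgre1, Cd3e, Itgam and Ptprc, at Col3a1 and Dcn of the fibroblast and endothelial markers, or at Krt20 of the epithelial ones. A promoter peak does not measure expression, so this does not check which cells the culture held.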

How the data were processed

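Chromatin of 1 organoid clone was immunoprecipitated with antibodies to KMT9alpha, KMT9beta and H4K12me1, 1 library each, and the authors deposited 1 peak list per library in which every peak has its coordinates and a score. Per the labels, reads were mapped to mm10; STAR is named in the protocol and Bowtie2 in the submitters' processing notes. Peak names begin with MACS, and the sources used here do not give the caller's settings, its control or what the score measures. Library depth is unknown.

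Peaks on assembled chromosomes were kept (26146, 90349 and 60289); none ran past a chromosome of GRCm38.p6, and none overlapped another in its list. Promoters were 1 kb either side of the starts of protein-coding transcripts in GENCODE M21. Percentiles count tied values as lying midway. Shares have exact binomial 95% intervals. With 1 library per antibody no p-value was computed. Protein motifs were not searched. The members and lists were chosen with earlier results of these data known. In the lists, Trmt61b is not annotated as protein-coding and was left out, and another list held 1 gene under both of its symbols, counted once. Named genes were the members, Thumpd2, Thumpd3, neighbours, and in each list the top KMT9alpha score among genes carrying all 3, and up to 3 genes with no peak. Ptprc, outside this rule, was named after its values were seen. Other score thresholds, peak numbers, windows, starts and overlap rules were tried. The overlap step, tested on simulated data, found exactly the genes planted. Tables were made with pandas 2.3.3 and numpy 2.4.6, intervals with scipy 1.17.1 and plots with matplotlib 3.10.9, in Python 3.11.15.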

Additional observations from a re-analysis of the deposited data

How the results depend on the processing

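No paired analysis was possible because each antibody has 1 library, and no replicate could be left out for the same reason. KMT9alpha at 6 members and H4K12me1 at 2 stood under 8 alternatives and 1 added after seeing the data (leaving out starts with an incomplete 5′ end). The alternative with 26146 peaks per list leaves the KMT9alpha list unchanged, so it cannot test the KMT9alpha calls. KMT9beta was at 3 members when lists were limited to scores from their median on and at 2 with 26146 peaks per list (57.0% and 48.0% of all genes), because the peaks of N6amt1, Mettl5 and, in the latter, Trmt11 score below those limits. All 3 were at 1 member when 50% of a peak or its midpoint had to lie in the window. Over all genes the share with all 3 was 23.1% at the median score and 22.2% with equal peak numbers, where H4K12me1 was at 28.9%. Of the 89 listed genes 29 and 20 had all 3, and the latter count is close to the share over all genes. Gene bodies of the members, in alternatives added after seeing the data, held 0 KMT9beta peaks and 1 H4K12me1 peak under either setting. Of 97 member scores at promoters that kept a peak, 1 moved: H4K12me1 at Trmt112 was 209.24 with windows of 2 kb, a peak in Prdx5. Lost scores are not among the 97, and a peak that stays keeps its score, so this does not show that scores are stable. The KMT9beta scores of N6amt1, Mettl5, Trmt11 and Trmt112 were each lost under 1 or more settings. Of 64 list counts, 11 moved by over 1.5 times, all downward and all under these score settings. Depth is unknown, so a missing peak shows only that none was listed at the authors' threshold.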

Other observations

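Both subunits were at 9 of the 12 coding genes next to the members, against 51.0% of all protein-coding genes, and 2 of the 9, Prdx5 and Dnajc30, share their promoter window with a member. Esrra, next to Trmt112, had all 3 at its own promoter (KMT9alpha 3100, KMT9beta 632.59 and H4K12me1 169.45, authors' scores), as did Prdx5 (3100, 750.74 and 209.24 in the same order). Ltn1, a ribosome quality control ubiquitin ligase gene next to N6amt1, showed the same pattern as N6amt1, with KMT9alpha (1588.98) and KMT9beta (146.01) and no H4K12me1. Adamts5, on its other side at 1452357 bp, had no promoter peak. Next to Mettl5, Ubr3 had all 3 (3100, 330.02 and 211.41) and Ssb, which encodes the La protein, had both subunits (3100 and 172.0) without the mark. Next to Trmt11, Hint3 had all 3 (3075.77, 171.33 and 92.82) and Cenpw, a centromere protein gene, had both subunits (2553.38 and 139.63). Next to Bud23, the syntaxin gene Stx1a had KMT9alpha (473.62) and KMT9beta (183.07). At Alkbh8 neither of the coding neighbours, Cwf19l2 at 68114 bp and Gm10715 at 298367 bp, had a promoter peak of any library.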
